A study of Saccharomyces cerevisiae with 4 samples.

Results

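The 10 genes described here are the 9 cyclin genes that partner the cyclin-dependent kinase CDC28 in budding yeast, together with CDC28 itself. They were taken by systematic name from a table of 6600 coding sequences: CLN1 (YMR199W), CLN2 (YPL256C), CLN3 (YAL040C), CLB1 (YGR108W), CLB2 (YPR119W), CLB3 (YDL155W), CLB4 (YLR210W), CLB5 (YPR120C), CLB6 (YGR109C) and CDC28 (YBR160W). The table comes from ribosome profiling, which sequences the mRNA fragments that ribosomes protect, so a count reflects ribosomes found on a coding sequence. A wild type (WT) of the Saccharomyces cerevisiae laboratory strain 74D-694 was compared with a mutant of the same background in which OAZ1, the antizyme gene that is normally read with a frameshift, was replaced by an in-frame version. All cultures were in mid-exponential growth in synthetic medium and received cycloheximide (50 µg/mL), and each strain gave 2 libraries. The labels do not say whether replicates were grown as separate cultures, and p-values then cover only the spread between these libraries, which may be technical.

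In budding yeast a single kinase, Cdc28, drives the cell cycle, and the cyclin bound to it sets the step. Cln3 acts early in G1 on the repressor Whi5 and so releases the transcription factors SBF and MBF, which switch on CLN1, CLN2, CLB5 and CLB6. Cln1 and Cln2 start budding, Clb5 and Clb6 start DNA replication, Clb3 and Clb4 act from S phase into spindle formation, and Clb1 and Clb2 drive mitosis. CDC28 mRNA is made throughout the cycle, while most of the cyclin mRNAs come and go with it. The cultures were not described as synchronized, so each value averages over all phases, and fewer cells in a phase cannot be told apart from fewer ribosomes on the mRNA per cell. No matched mRNA libraries were analysed here, so mRNA level and ribosome load per mRNA cannot be told apart either.

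The steps above are given by function, and short promoter elements were looked up beside them. The SBF element CACGAAA, the MBF element ACGCGT and the forkhead element GTAAACA were searched on both strands in the 700 bases before each start codon of the reference genome (RefSeq assembly R64). CLN2 held 2 SBF elements, CLN1 held 1 MBF element and CLB6 held 2, and the forkhead letters were found 1 time each for CLB1, CLB4 and CLB6. Windows with at most 10 bases on each side are shown 5′ to 3′ on the strand of the gene, with the element in capitals.
CLN2, chrXVI:67179-67205, minus strand: aacggaagtaCACGAAAttcgtcccgc
CLN2, chrXVI:67136-67162, minus strand: gtgttctagtCACGAAAcgcgccaaaa
CLN1, chrXIII:662028-662053, plus strand: cctgcaagagACGCGTtcaaggaaga
CLB6, chrVII:706889-706914, minus strand: tagcagttttACGCGTaccacaaaat
CLB6, chrVII:706863-706888, minus strand: ttaacgaccaACGCGTattcttcgcg
CLB6, chrVII:706830-706856, minus strand: ttttgcgacgGTAAACAaaaaaagggc
CLB4, chrXII:561837-561863, plus strand: tttgcgctttGTAAACActgaaacaaa
CLB1, chrVII:702998-703024, plus strand: cacgacctttTGTTTACaaccgcccaa
The CLB1 window carries the forkhead element on the opposite strand. Among 5913 genes with a full window, 9.50% held the SBF letters, 6.98% the MBF letters and 13.6% the forkhead letters, and these matches describe the sequence only. The other members held none of these exact letters in this window. Variants of the elements were not searched, so a gene without a match may still carry a site.

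Since the assay reads ribosomes, the start codon context of each gene is also shown, as 9 bases before the start codon, the codon in capitals and 6 bases after it.
CLN3: ttctgtacgATGgccata
CLN1: aaaaagatcATGaaccac
CLN2: cgacagacaATGgctagt
CLB5: tactgaacaATGggagag
CLB6: atttttaaaATGaattgt
CLB3: ttattataaATGcatcat
CLB4: aattgacagATGatgctt
CLB1: cttctcataATGtcacga
CLB2: atcttatagATGtccaac
CDC28: ccttcgaacATGagcggt
An A stands at the third base before the start codon in 7 of the 10 genes, compared with 60.4% of 5916 coding sequences. The 3 without it were CLB2 and CLB3, which have T there, and CLB4, which has C.

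Each gene is a single uninterrupted coding sequence, from 897 bases in CDC28 to 1743 in CLN3. Members with related sequence were distinct enough for their fragments to be told apart: none of the 28-base words of any member occurred in another annotated coding sequence. CLN1 and CLN2 were identical at 68.8% of aligned coding bases and CLB1 and CLB2 at 69.7%. The longest run they share is given for each pair, and at 17 bases it is shorter than those words.
CLN1 and CLN2: caaatggaaagacatat
CLB1 and CLB2: gagacagacggtgcatg
No other annotated coding sequence overlapped a member on either strand. Annotated here means RefSeq: the 683 rows of the count table without a match there were left out of this and the 28-base comparison. The B-type genes lie partly in neighbouring pairs. CLB1 (chrVII:703636-705051, plus strand) ends 307 bases from the end of CLB6 (chrVII:705359-706501, minus strand). CLB2 (chrXVI:771653-773128, plus strand) ends 746 bases from the end of CLB5 (chrXVI:773875-775182, minus strand), and each pair has 0 annotated coding sequences between its members. In both pairs a mitotic cyclin gene therefore faces an S phase cyclin gene tail to tail.

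The WT libraries, replicates 1 and 2, held 29671498 and 10202557 counts in total, and the mutant libraries 7571371 and 2826895. OAZ1 had 379, 110, 160 and 49 counts in the same order, and the count of a whole coding sequence cannot tell its natural form from the in-frame form. Its log2 fold change was 0.73 (adjusted p = 0.755 in edgeR's quasi-likelihood test). With 1 library left out the log2 fold change of OAZ1 ran from 0.63 to 0.87. The lowest value was without WT replicate 2, where WT replicate 1 alone stands for WT. Summed over 6 genes specific to mating type a, the libraries held 338 to 725 CPM (here the plain share of a total scaled to 1000000), and over 4 genes specific to mating type alpha 3.18 to 8.43, with none of the 10 at 0 in all libraries. WT replicate 1 stood apart. Its log2 differences from WT replicate 2 had an SD of 0.51 over the 4603 genes that averaged 100 counts or more, while those between WT replicate 2 and mutant replicate 1 had an SD of 0.22. For the 10 members these SDs were 0.22 and 0.15, and the SD between the mutant libraries was 0.32, so among these genes mutant replicate 2, the shallowest library, lay farther out than WT replicate 1. Counting error alone reached 16.9% for a member in that library.

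As a set, the cyclin genes and CDC28 took nearly the same share of ribosome footprints in every library. They held 10873 counts in WT replicate 1, or 0.0366% of the total (95% Wilson interval 0.0360% to 0.0373%). The share was 0.0352% in WT replicate 2 (0.0340% to 0.0363%), 0.0358% in mutant replicate 1 (0.0345% to 0.0372%) and 0.0362% in mutant replicate 2 (0.0341% to 0.0385%). The mutant values lay between the WT values. Such intervals take in counting error alone, with every fragment counted as independent. PCR copies cannot be recognised without molecular identifiers, and any among the counts would make the intervals too narrow.

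Levels are given as CPM after TMM normalization, which scales libraries to each other, divided by coding length in kb. CDC28 was the highest of the 10 genes in all 4 libraries, at 84.8 and 73.4 CPM per kb in WT replicates 1 and 2 and 73.3 and 109 CPM per kb in mutant replicates 1 and 2. Its mean level over the libraries, 85.2 CPM per kb, was at the 74.0 percentile of the tested genes. CLN2 followed in every library with a mean of 38.9 CPM per kb, and its range did not overlap that of CDC28 or of CLN1. CLN1 at 26.0, CLN3 at 25.04, CLB3 at 22.1 and CLB2 at 21.4 CPM per kb came next, and each neighbouring pair in this order had overlapping ranges and changed places in 1 of the 4 libraries. CLB4 at 17.9 and CLB1 at 16.9 CPM per kb also overlapped, and CLB2 lay above CLB4 in 4 of 4 libraries with no overlap. The S phase cyclins were lowest, CLB5 at 11.8 and CLB6 at 8.29 CPM per kb, which is the 19.3 percentile for CLB6. CLB5 lay above CLB6 in 4 of 4 libraries, although the ranges of that pair overlapped.

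**Figure D1:**
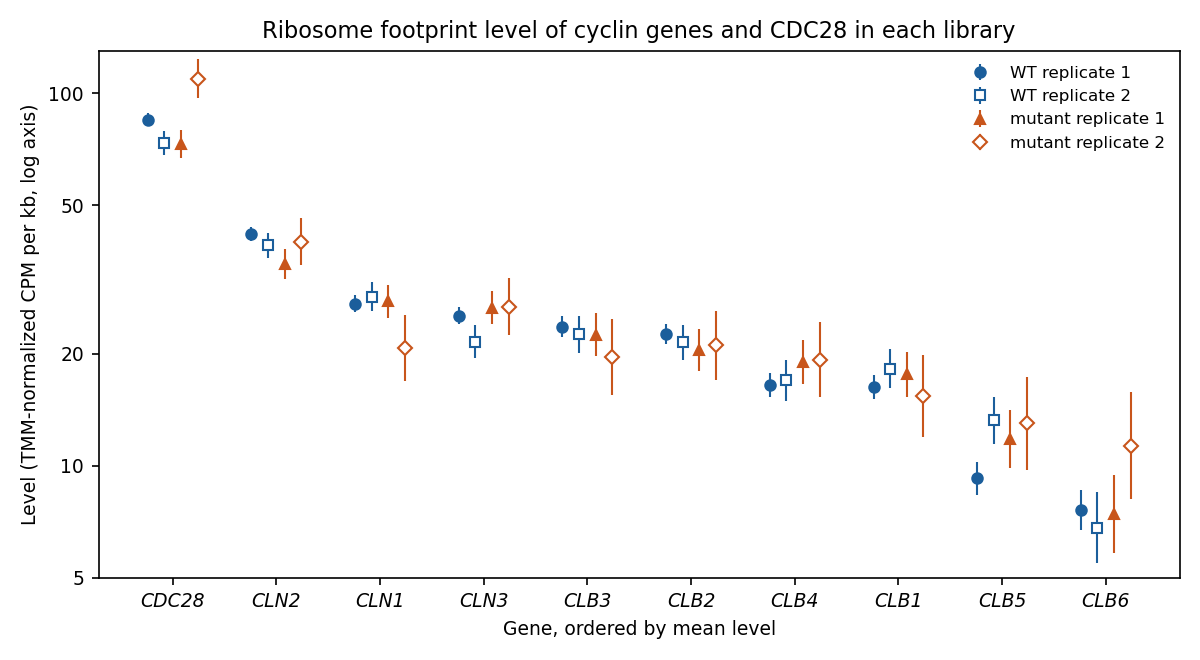
Level of each gene (TMM-normalized CPM per kb of coding sequence, log axis) in the 4 libraries, with genes ordered by mean level; points are libraries and bars are 95% Wilson intervals for counting error. CDC28 is at the top and CLB5 and CLB6 at the bottom in all 4 libraries, and WT and mutant points interleave for most genes.

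Weighed by level, the G1 cyclins CLN1, CLN2 and CLN3 made up 49.6% and 47.3% of the summed cyclin level in the WT libraries and 47.4% and 46.7% in the mutant ones. CLB1 and CLB2 made up 20.4% and 21.1% in WT and 20.3% and 19.5% in mutant, and CLB3 and CLB4 made up 21.1% and 21.0% in WT and 22.1% and 20.8% in mutant. CLB5 and CLB6 made up 8.87% and 10.7% in WT and 10.2% and 13.01% in mutant, so that the G1 cyclins came first and the S phase cyclins last in every library. Of the summed counts of the 10 genes, CDC28 held 25.9% in mutant replicate 2 (95% Wilson interval 23.3% to 28.6%) and 18.9% to 20.9% in the other libraries, while CLN1 held 8.98% there (7.38% to 10.9%) and 12.3% to 13.4% elsewhere.

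The comparison of mutant with WT asked whether any of these genes changed when OAZ1 was read in frame. None of the 10 passed the test, against a background in which 0.0% of 5233 tested genes passed an adjusted p of 0.05 in either direction (edgeR's quasi-likelihood test, two-sided). At an unadjusted p under 0.05, 0 of the 10 passed, where 5.45% of tested genes did. DESeq2 called 0 of the members, and 0.0764% of tested genes as lower and 0.0% as higher. All 10 passed the filter on low counts. Of the 10 log2 fold changes 5 were above and 5 below 0, where 48.4% of all tested genes were above. Their median size regardless of sign was 0.16, beside 0.18 over all tested genes. The 95% intervals of the members reached from a 0.619-fold to a 2.07-fold level in mutant, so changes inside a gene's own interval remain possible. These intervals are not detection limits, because the smallest adjusted p over all tested genes was 0.755 (edgeR's quasi-likelihood test). A change beyond them could also have gone uncalled with 2 libraries a group. With WT replicate 1 left out 0 of the 10 passed, where 0.325% of tested genes were called higher and 0.42% lower in mutant. With WT replicate 2 left out again 0 of the 10 passed, although 4.35% of genes were called higher and 14.9% lower.

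CLN3, the G1 cyclin that acts upstream of the others, had 1319 and 386 counts in WT and 361 and 126 in mutant. These correspond to 44.1 and 37.6 CPM (WT) and 46.3 and 46.6 CPM (mutant). The mutant libraries both lay above WT by a small margin, as in 2 of the 10 genes, and 19.1% of all tested genes had that pattern. This gave a log2 fold change of 0.18 (SE 0.18, adjusted p = 0.858, edgeR), a 1.14-fold level with an interval from 0.835 to 1.55.

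CLN2, a cyclin that starts budding, had 2049 and 658 counts in WT and 443 and 177 in mutant, corresponding to 68.5 and 64.02 CPM (WT) and 56.9 and 65.5 CPM (mutant). The mutant values lay on either side of WT replicate 2, so the groups overlapped. Its log2 fold change was -0.12 (SE 0.18, adjusted p = 0.893, edgeR) with an interval of the fold from 0.683 to 1.24. CLN1, its close relative, had 1337 and 480 counts in WT and 353 and 92 in mutant, corresponding to 44.7 and 46.7 CPM (WT) and 45.3 and 34.0 CPM (mutant). Mutant replicate 2 was the lowest library, while mutant replicate 1 lay between the WT libraries. CLN1 had a log2 fold change of -0.19 (SE 0.21, adjusted p = 0.866, edgeR), and of -0.011 when mutant replicate 2 was left out.

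CLB5, which promotes the start of DNA replication, had 362 and 178 counts in WT and 120 and 46 in mutant, corresponding to 12.1 and 17.3 CPM (WT) and 15.4 and 17.0 CPM (mutant). WT replicate 1 was the low library, and the other WT library was the highest of all. The 95% Wilson intervals of the WT libraries, 10.9 to 13.4 and 15.0 to 20.1 CPM, did not overlap. Counting error of independent fragments alone thus does not cover the gap within WT, while PCR copies were not assessed. This gave a log2 fold change of 0.14 (SE 0.26, adjusted p = 0.929, edgeR), and without WT replicate 1 it was -0.12. CLB6, its partner in S phase, had the fewest counts of the members, with 260 and 80 in WT and 66 and 35 in mutant. Its levels were 8.69 and 7.78 CPM (WT) and 8.47 and 12.9 CPM (mutant), and mutant replicate 2 alone lay above WT. CLB6 had the largest log2 fold change of the 10, 0.33 (SE 0.30, adjusted p = 0.847, edgeR), and 27.5% of all tested genes had a larger one in either direction. Without mutant replicate 2 it was 0.04.

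CLB3 and CLB4, which act between S phase and mitosis, had fold changes on opposite sides of 0. CLB3 had 907 and 297 counts in WT and 225 and 68 in mutant, corresponding to 30.3 and 28.9 CPM (WT) and 28.88 and 25.2 CPM (mutant). Both mutant values lay below WT, but WT replicate 2 at 28.90 and mutant replicate 1 at 28.88 CPM were almost equal, and 17.9% of tested genes were wholly lower in this sense. CLB4 had 680 and 241 counts in WT and 205 and 72 in mutant, corresponding to 22.7 and 23.4 CPM (WT) and 26.3 and 26.6 CPM (mutant). CLB4 had a WT mean of 23.1 ± 0.506 CPM and a mutant mean of 26.5 ± 0.230 CPM (SD, n = 2 each). Mutant was wholly higher. Both SDs were smaller than counting error alone, which was 3.83% and 6.44% in WT and 6.98% and 11.8% in mutant. The closeness of the replicates is therefore no measure of precision. The Wilson intervals were 21.1 to 24.5 and 20.7 to 26.6 CPM (WT) and 22.9 to 30.2 and 21.2 to 33.5 CPM (mutant). These intervals overlapped between WT and mutant. The log2 fold changes were -0.12 for CLB3 (SE 0.19, adjusted p = 0.905, edgeR) and 0.20 for CLB4 (SE 0.19, adjusted p = 0.851, edgeR).

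CLB2, the main mitotic cyclin, was the steadiest of the 10 genes, with a 1.10-fold range over the libraries. It had 995 and 325 counts in WT and 235 and 84 in mutant, corresponding to 33.3 and 31.6 CPM (WT) and 30.2 and 31.1 CPM (mutant). Both mutant libraries lay just below WT, and the log2 fold change was -0.09 (SE 0.18, adjusted p = 0.942, edgeR), with an interval of the fold from 0.692 to 1.28. CLB1, its relative, had 688 and 265 counts in WT and 194 and 59 in mutant, corresponding to 23.0 and 25.8 CPM (WT) and 24.9 and 21.8 CPM (mutant). The groups overlapped, and the log2 fold change was -0.05 (SE 0.20, adjusted p = 0.978, edgeR). In the tail-to-tail neighbours, the log2 fold changes were therefore -0.05 for CLB1 beside 0.33 for CLB6, and -0.09 for CLB2 beside 0.14 for CLB5. In all, groups did not overlap for 4 of the 10 members, CLN3 and CLB4 higher and CLB2 and CLB3 lower in mutant, where 36.9% of tested genes did not overlap.

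CDC28, the kinase, had 2276 and 677 counts in WT and 512 and 265 in mutant, corresponding to 76.1 and 65.9 CPM (WT) and 65.7 and 98.04 CPM (mutant). Mutant replicate 1 lay within 1 CPM of WT replicate 2, while mutant replicate 2 was the highest library. The Wilson interval of mutant replicate 2, 86.9 to 110.6 CPM, did not reach that of mutant replicate 1, 60.3 to 71.7 CPM. The mutant libraries thus differed by more than the counting error of independent fragments, while PCR copies were not assessed. This gave a log2 fold change of 0.19 (SE 0.24, adjusted p = 0.885, edgeR), and it was -0.11 when mutant replicate 2 was left out and 0.47 without the other mutant library. The sign for CDC28 thus rested on 1 library.

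**Figure D2:**
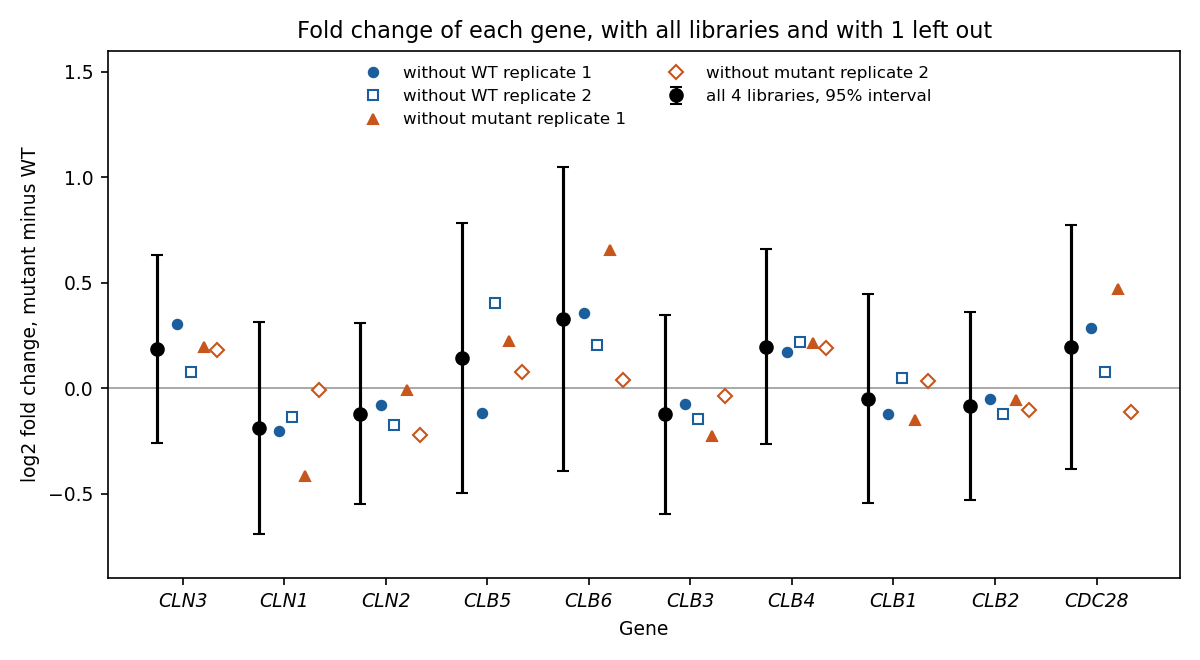
The log2 fold change (mutant minus WT) of each gene with all 4 libraries, with its 95% interval, and the value with each library left out in turn. Every interval includes 0, and the values of CLB5, CLB1 and CDC28 cross 0 when a library is left out.

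A cyclin is active only when bound to the kinase, so each cyclin level was also divided by the CDC28 level of the same library, a ratio that does not depend on scaling between libraries. The summed level of the 9 cyclins was 2.24 and 2.56 times that of CDC28 in WT and 2.56 and 1.71 times in mutant. WT replicate 2 and mutant replicate 1 had almost the same value, and mutant replicate 2, in which CDC28 was highest, had the lowest. The ratio for CLN2 was 0.493 and 0.532 in WT and 0.474 and 0.366 in mutant, so mutant was lower in both libraries, with a log2 difference of -0.30 that was -0.11 without mutant replicate 2. For CLB6 it was 0.0896 and 0.0927 in WT and 0.101 and 0.104 in mutant, higher in both, with a log2 difference of 0.17. The counting error of CLB6 alone was 6.20% and 11.2% in WT and 12.3% and 16.9% in mutant. The groups overlapped for the other 7 cyclins, whose log2 differences ran from -0.40 for CLN1 to 0.02 for CLB4. With 2 libraries a group the smallest p that an exact two-sided permutation test can give is 0.333, so no ratio could pass. CLN2 and CLB6 had that value, and adjusted over the 9 ratios every p was 1.00 (exact permutation test).

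**Figure D3:**
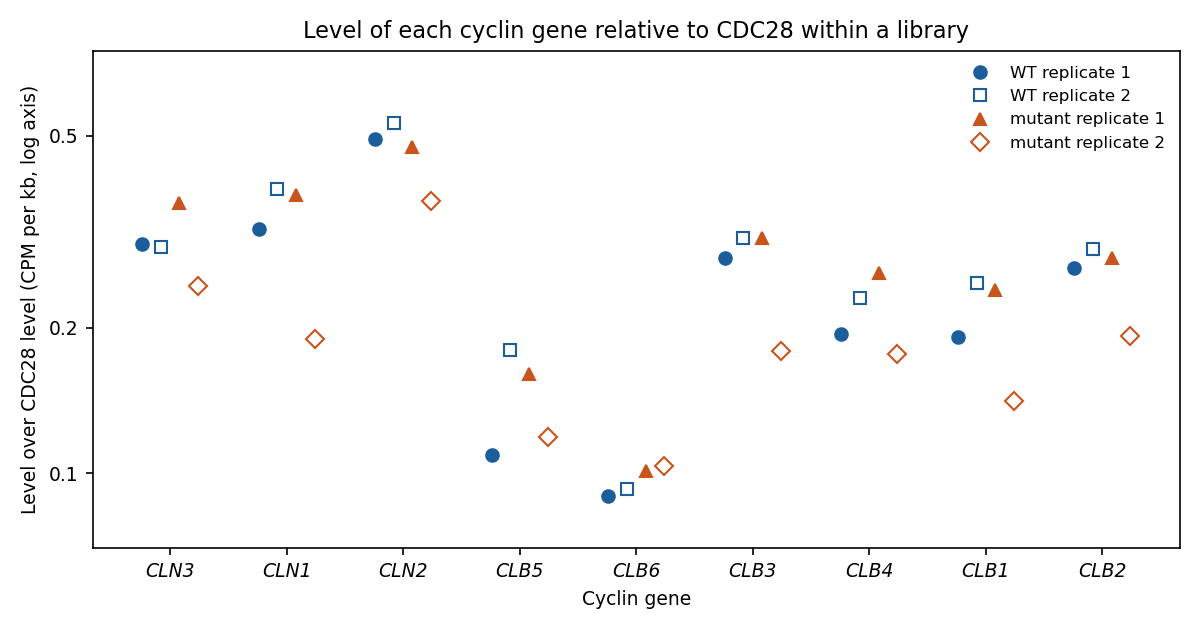
Level of each cyclin gene divided by the CDC28 level of the same library (ratio of CPM per kb, log axis), with 1 point per library. Mutant replicate 2 is lowest for CLN1, CLN2, CLN3, CLB1, CLB2, CLB3 and CLB4, and the values for CLB6 lie between 0.0896 and 0.104.

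Within 3 of 4 related pairs the log2 ratio had a larger SD between replicates of at least 1 strain than its difference between strains. The ratio of CLN1 to CLN2 by level was 0.651 and 0.728 in WT and 0.795 and 0.519 in mutant, and the mutant values spanned those of WT. The ratio of CLB1 to CLB2 was 0.721 and 0.850 in WT and 0.861 and 0.732 in mutant, again overlapping. CLB5 stood at 1.22 and 1.94 times CLB6 in WT and 1.59 and 1.15 times in mutant. CLB3 stood at 1.44 and 1.33 times CLB4 in WT and 1.18 and 1.02 times in mutant, so mutant was lower in both libraries, with a log2 difference of -0.33. Its exact permutation p was 0.333, the smallest possible with n = 2 each, or 0.889 adjusted over the 4 pairs.

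The genes around the cyclins were read from the same fit, in 10 lists that share a few members. With all libraries none of these genes passed edgeR's test in either direction, and DESeq2 called 0 of them. The list medians were small and rested in part on single libraries: with 1 library left out, the median of 6 of the 10 lists changed sign. The ranges over these fits are given beside each median. The list of kinase regulators, direct and indirect, had 6 of 9 genes on the higher side of 0. Its median log2 fold change was 0.03 (-0.039 to 0.093 with 1 library left out), beside -0.01 over all tested genes (-0.024 to 0.013). The sign of the list median turned without mutant replicate 1. CKS1, the small subunit that helps the kinase bind its targets, had levels of 37.6 and 49.6 CPM (WT) and 44.8 and 77.7 CPM (mutant). As for CDC28, mutant replicate 2 was the highest library, and CKS1 had a log2 fold change of 0.48 (adjusted p = 0.761, edgeR) with all libraries. It was 0.042 without mutant replicate 2 and 0.84 without the other mutant library. It was 0.25 with WT replicate 1 left out and 0.66 with WT replicate 2 left out. In the last of these fits WT replicate 1 alone stands for WT. MIH1, the phosphatase that removes the inhibitory phosphate from Cdc28, had 193 and 81 counts in WT and 75 and 23 in mutant and a log2 fold change of 0.36 (adjusted p = 0.802, edgeR), or 0.23 without WT replicate 1.

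Among 9 regulators of G1/S transcription the median was 0.03, and it was below 0 in 3 of the 4 fits with 1 library left out, at -0.096 and -0.0016 with WT replicate 1 or 2 left out and at -0.031 with mutant replicate 1 left out. WHI5, the repressor that Cln3 acts on, had levels of 23.4 and 20.2 CPM (WT) and 17.2 and 17.8 CPM (mutant), a log2 fold change of -0.33 (adjusted p = 0.761, edgeR). Mutant was wholly lower for WHI5, as for 17.9% of tested genes, and wholly higher for CLN3, as for 19.1%. Neither gene passed the test. WHI3, an RNA-binding protein that holds back CLN3 mRNA, had a log2 fold change of 0.20, or 0.056 without WT replicate 1. Of the 12 targets of SBF and MBF 7 lay above 0, and their median was 0.12 (0.067 to 0.20 with 1 library left out). Among them was POL30, the replication clamp, at 0.30, or 0.13 without mutant replicate 2. SVS1, a cell wall and vacuolar protein in this list, was the single list gene with an unadjusted p under 0.05, where 3.73% of all tested genes were lower in mutant at that level. Its level was 143.7 CPM in WT replicate 1 and 73.2 CPM in the other WT library, and the mutant libraries had 58.5 and 50.7 CPM. This gave SVS1 a log2 fold change of -0.99 (adjusted p = 0.755, edgeR) that became -0.41 without WT replicate 1. The 6 genes of the MCM helicase, which unwinds replication origins, had a median of 0.04, with MCM7 at 0.16 and MCM2 at -0.12. That median had no settled sign: it was 0.17 and -0.091 with WT replicate 1 or 2 left out, and -0.13 and 0.15 with mutant replicate 1 or 2 left out.

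The transcription factors of G2/M and M/G1 had 6 of 8 genes on the higher side of 0, with a median of 0.10, which was -0.028 without WT replicate 1 and 0.0078 without mutant replicate 2. FKH2, a forkhead factor of CLB2 transcription, had levels of 28.8 and 22.0 CPM (WT) and 31.96 and 33.3 CPM (mutant), a log2 fold change of 0.35 (adjusted p = 0.756, edgeR), and NDD1, its coactivator, had 0.23. FKH2 had 0.17 without WT replicate 2, and NDD1 had -0.022 without WT replicate 1 and 0.061 without mutant replicate 2. The other genes of the CLB2 cluster, which peak with CLB2, had 7 of 11 below 0, with a median of -0.09, which was -0.002 without WT replicate 1. CLB2 itself had -0.09 with all libraries and -0.053 without that one. HST3, a histone deacetylase, had a log2 fold change of -0.32 and MYO1, the myosin of the bud neck, of -0.29, or -0.15 without mutant replicate 2. The genes of the SIC1 cluster, which peak as cells leave mitosis, had 5 of 9 below 0, with a median of -0.10, which was above 0 with either WT library left out (0.066 without replicate 1, 0.052 without replicate 2). DSE4, a glucanase that separates daughter cells, stood at 124.02 CPM in WT replicate 1 and at 38.1 to 40.3 CPM in the other 3 libraries. The DSE4 log2 fold change of -1.03 became 0.07 when WT replicate 1 was left out. SCW11, another wall enzyme of that list, stood at 87.8 CPM in WT replicate 1 and at 41.1 to 47.2 CPM in the others, and its log2 fold change of -0.68 became -0.16. Both wall enzymes were thus highest in WT replicate 1.

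Genes of the ubiquitin system that marks cyclins for destruction had 5 of 13 above 0, with a median of -0.01, and their range was from -0.17 for CDC53 to 0.11 for CDC20. Leaving out WT replicate 1 gave 0.084 and leaving out mutant replicate 2 gave 0.076, while dropping mutant replicate 1 gave -0.076. Cyclins of other kinases were compared as the nearest relatives of these genes. The kinase PHO85 and its cyclins, of which only some serve phosphate and nutrient signalling, had 10 of 11 genes on the higher side of 0. Their median was 0.19 (0.11 to 0.22 with 1 library left out). PCL9 of this list is also in the SIC1 cluster. PHO80 stood at 0.49 from 15 to 89 counts per library, but at 0.19 without mutant replicate 2 and 0.87 without mutant replicate 1. PCL5 stood at 0.33, or 0.18 without WT replicate 2 and 0.21 without mutant replicate 2. Mutant was wholly higher for 6 of these 11 genes, where 19.1% of tested genes were, and wholly lower for 1. The cyclins and kinases of transcription had 6 of 8 above 0, with a median of 0.12, or 0.036 without WT replicate 1. CTK2 and CTK1, the cyclin and kinase of a complex that acts on RNA polymerase II, stood at 0.22 and 0.17, and were 0.14 without mutant replicate 2 and 0.026 without WT replicate 1. The cyclins of CDC28 and CDC28 itself had a median of 0.05, which was -0.065 without WT replicate 1, and differences between lists were not tested.

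**Figure D4:**
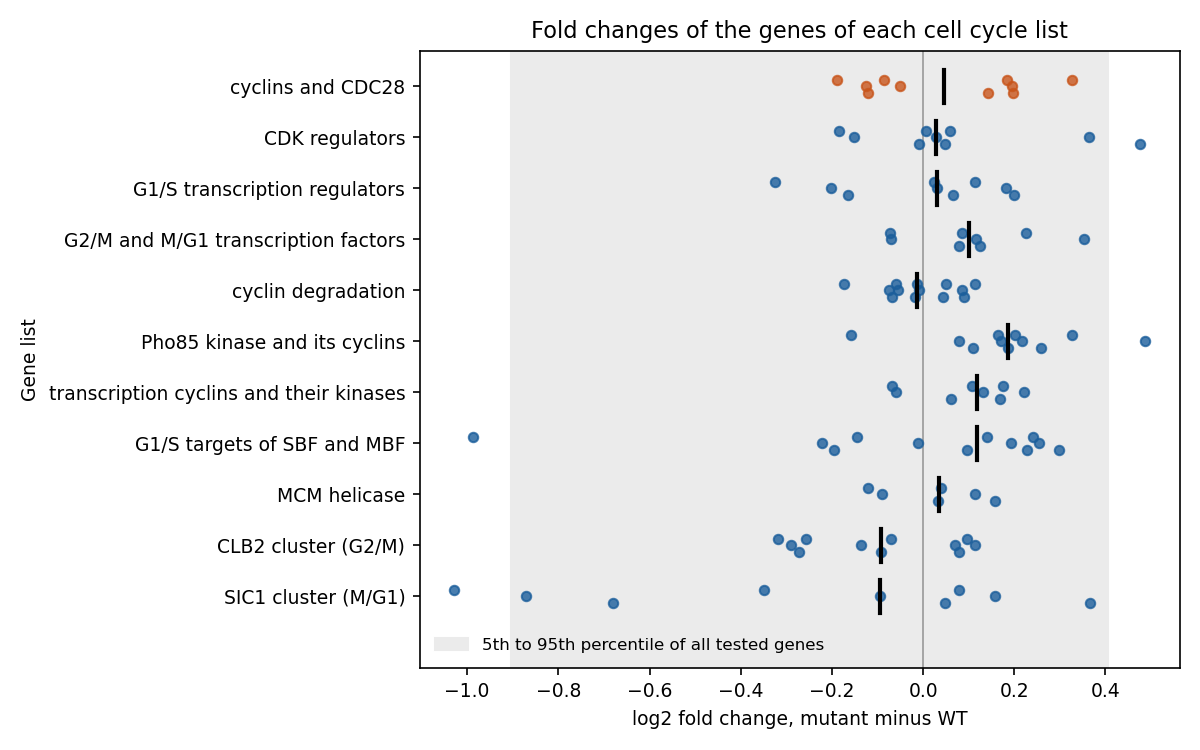
The log2 fold change (mutant minus WT) of every gene of the 10 members and of each cell cycle list, with a black bar at the median and a grey band from the 5th to the 95th percentile of all tested genes. All members lie inside the band, and the points outside it are DSE4 and SVS1 on the left and CKS1 and PHO80 on the right.

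The genes with profiles most like those of CDC28, CLN2 and CLB2 were found by Euclidean distance between centred log2 CPM values over the 4 libraries, among the 4593 other genes that averaged 100 counts or more. For CDC28 these were DAM1 of the kinetochore ring (distance 0.0747), MAK16 of ribosome assembly (0.0863) and YER010C (0.0976). Each of them was highest in mutant replicate 2, as CDC28 was, which follows from picking them by nearness over these same libraries. For CLN2 they were SND3 (0.0236), which helps target proteins to the endoplasmic reticulum, VID28 (0.0257) and PSP2 (0.0450). For CLB2 they were the telomere-binding factor TBF1 (0.0105), the transcription factor YRR1 (0.0257) and CBS2 (0.0296), which serves mitochondrial translation. Over 4 libraries such nearness is common: 68 genes lay within a distance of 0.2 of CDC28, 367 of CLN2 and 665 of CLB2. Among the members, CLN2 and CLB2 were nearest to each other (0.120), and CLB6 was nearest to CDC28 (0.167).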

How the data were processed

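The authors deposited a single table of raw counts of ribosome-protected fragments, 1 row per coding sequence and 1 column for each library. Bowtie2, DESeq2 and sacCer3 are named, without roles or versions, in the submitters' processing notes. What counted the reads, and with which length filter, strand setting and rule for several matches, is not given in the sources used here. Header and data lines differ in their tabs (single against doubled). Column names were therefore taken in order, an assumption behind all values. Of 6600 rows 5917 matched the RefSeq annotation of R64, the assembly that sacCer3 is made from.

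All genes were tested together with edgeR 4.0.16 in R 4.3.3 (quasi-likelihood test, TMM normalization, filterByExpr with minimum count 10 and minimum total 15, Benjamini-Hochberg adjustment at 0.05 over 5233 genes). DESeq2 1.42.0 was the alternative. Alternatives were another scaling, no filter, a replicate block and each library left out. The edgeR script was run on simulated data with the same replicate spread set for every gene. That run checks the code and does not measure power in these libraries. Ratios used SciPy 1.17.1. A prior count of 2 entered log2 CPM for library differences and profile distances. A count of 0 allows 3 counts, which is 0.101 CPM in WT replicate 1 and 1.06 CPM in mutant replicate 2.

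The members and lists were chosen with earlier results of these data known. The genes named were the 10 members, OAZ1, the 2 genes per list with the smallest p, and the 3 nearest profiles of CDC28, CLN2 and CLB2.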

Additional observations from a re-analysis of the deposited data

How the results depend on the processing

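No member passed the test under any of the 8 alternatives, and 7 of the 10 kept their sign in all of them. With 1 library left out, the log2 fold change ran from -0.12 to 0.40 for CLB5, from -0.15 to 0.046 for CLB1 and from -0.11 to 0.47 for CDC28. Among those that kept their sign it ran from -0.42 to -0.011 for CLN1, -0.22 to -0.011 for CLN2, 0.076 to 0.30 for CLN3, 0.037 to 0.65 for CLB6, -0.23 to -0.036 for CLB3, 0.17 to 0.22 for CLB4 and -0.12 to -0.053 for CLB2. Of the 20 named list genes 15 kept their sign, and the ranges of the others were -0.022 to 0.45 for NDD1, -0.43 to 0.036 for CDC53, -0.018 to 0.26 for CDC20, -0.27 to 0.0097 for MCM2 and -1.63 to 0.067 for DSE4. The count of genes called over the whole table was 0 with all libraries, 4 by DESeq2 and 0 to 1008 with 1 library left out, the highest without WT replicate 2 and 39 without WT replicate 1. Without WT replicate 2 the calls included OAZ1, 1 of the kinase regulators (CKS1), 1 of the SBF and MBF targets (SVS1), 1 of the CLB2 cluster (IQG1) and 4 of the SIC1 cluster (SCW11, CTS1, EGT2 and DSE4), and each of these lists had 0 called with any other library left out. In that fit WT replicate 1 alone stands for WT and is assumed to vary like the mutant pair, and 4.35% of genes were called higher and 14.9% lower. IQG1, CTS1 and EGT2 were named after their values were seen.

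The log2 difference of the ratio to CDC28 ran from -0.89 to 0.10 for CLN1, -0.27 to 0.29 for CLN3, -0.38 to 0.34 for CLB5, -0.70 to 0.072 for CLB3, -0.26 to 0.30 for CLB4, -0.63 to 0.14 for CLB1 and -0.53 to 0.0027 for CLB2 with 1 library left out, while those of CLN2 (-0.49 to -0.11) and CLB6 (0.14 to 0.19) kept their sign. Within pairs, an alternative chosen after seeing the data as were the leave-out medians of lists, it ran from -0.41 to 0.21 for CLN1 to CLN2, -0.10 to 0.14 for CLB1 to CLB2 and -0.53 to 0.15 for CLB5 to CLB6, and CLB3 to CLB4 kept its sign. The cause was not tested. With the replicate number as a block, 0 genes were called and CDC28 had a log2 fold change of 0.17. Nothing in the labels pairs the replicates, and the deviations of same-numbered libraries from their group means correlated at 0.0799 across 4603 genes. Depth limits CLB6 most, where counting error alone was 16.9% in mutant replicate 2.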
